A study of Mus musculus with 24 samples.

Results

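MiR-21a is a microRNA (miRNA), a short RNA that guides Argonaute proteins to messenger RNAs and represses them. Both of its mature arms, listed as mmu-miR-21a-5p and mmu-miR-21a-3p and written here without the prefix, were followed through all 24 small RNA libraries of mouse subcutaneous white fat. These 2 names were taken from 1907 mature miRNA names in the count table by name alone, and both were among the 558 names with enough counts to be tested. The animals ate control or high-fat food until day 1, week 1 or week 3, which gave 6 groups of 4 libraries. The sources used here do not give strain, genotype, sex, age or the make-up of the diets. The labels do not tie libraries to separate animals. P-values therefore measure only how these samples spread, and that spread may be technical.

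MiR-21 is transcribed as a long primary RNA that is cut to a hairpin by Drosha and then to a duplex of both arms by DICER, the enzyme named in the title of the series. The 5p arm is the guide strand that is kept in Argonaute in most tissues, while the 3p arm is the passenger strand that is mostly degraded. MiR-21 is induced by STAT3, AP-1 and TGF-beta signalling, represses Pdcd4 and Spry genes, and is known in fat from inflammation, fibrosis and obesity.

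The sequences are shown because they tell the 2 arms from each other and from 2 miR-21 relatives that could share reads. They come from RefSeq tables on GRCm38.p6, the assembly called mm10, run 5′ to 3′, and have the seed (bases 2 to 8, which pair with target messenger RNAs) in capitals.
miR-21a-5p: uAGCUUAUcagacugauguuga
miR-21a-3p: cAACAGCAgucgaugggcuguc
miR-21b: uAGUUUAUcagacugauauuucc
miR-21c: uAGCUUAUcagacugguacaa
The arms have different seeds. Among the RefSeq sequences used here only miR-21c shares the seed of miR-21a-5p, and none shares that of miR-21a-3p. Of the 1907 counted names 1623 matched such a sequence, and the seeds of the others were not compared. The comparison did not return miR-590-5p, which the plan had named as a seed relative for the case without sequences. The set of seed relatives may therefore be incomplete. Counted from the 5′ end of miR-21a-5p, miR-21b differs at 4 positions (C4U, G18A, G21U and A22C), the first of them inside the seed. MiR-21c differs at 5 positions outside it (A16G, G18A, U19C, U20A and G21A). The count table held 11 counts of miR-21b over all libraries, at most 2 in any one, and 0 of miR-21c, against 9584007 counts of miR-21a-5p. MiR-21b and miR-21c were therefore under a floor of 3 counts in every library.

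The miR-21a hairpin lies at chr11:86584067-86584158 on the minus strand of GRCm38 and is 92 bases long. MiR-21a-5p occupies hairpin bases 18 to 39 (chr11:86584120-86584141) and miR-21a-3p bases 56 to 77 (chr11:86584082-86584103), with 16 bases between them. In GENCODE M21 the hairpin sits wholly within the last exon of Vmp1, an autophagy gene, in its 3′ untranslated region on the same strand. Each arm is 22 bases long, with a GC content of 36.4% for the 5p arm and 59.1% for the 3p arm. Library totals ran from 1.99 to 16.3 M (mega-counts) with a median of 5.30 M. The adipocyte marker list had 7 of 7 members tested, led by miR-148a-3p at 170675 CPM (counts per 1 M, scaled with TMM factors from edgeR), and none of the 7 was at 0 in any library. Endothelial miR-126a-5p was listed at 0 in all 24 libraries, while its partner arm miR-126a-3p had a mean of 88132 CPM.

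MiR-21a-5p was one of the most abundant miRNAs of the tissue and miR-21a-3p one of the modest ones. The 5p arm averaged 66317 CPM over the 24 libraries, the fifth highest mean, and made up 6.61% of all counts. Its rank was 3 to 6 in every library. It stood between miR-99a-5p (81185 CPM) and let-7i-5p (38198 CPM). The 3p arm averaged 17.1 CPM, rank 314, between miR-380-3p (17.3 CPM) and miR-34b-3p (17.0 CPM). The raw counts behind these levels were 127263 to 940161 per library for the 5p arm and 32 to 323 for the 3p arm. Counting error alone is therefore negligible for the 5p arm and 5.56% to 17.7% (as a coefficient of variation) for the 3p arm. No molecular identifiers are mentioned in the labels, so intervals from counts cover counting error only.

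In the libraries of day 1, miR-21a-5p was high on both diets. Control replicates 1 to 4 had 72724, 82832, 80850 and 85338 CPM. High-fat replicates 1 to 4 had 82086, 64681, 83230 and 62758 CPM. The control libraries lay close together, and the high-fat libraries split into 2 at the control level and 2 below all controls.
At week 1 the spread was widest. Control replicates 1 to 4 had 95954, 66286, 54865 and 58324 CPM. High-fat replicates 1 to 4 had 60967, 49608, 39412 and 80531 CPM. The highest and the lowest miR-21a-5p values of the whole series, control replicate 1 and high-fat replicate 3, were both at this time, and the groups overlapped.
At week 3 the values were close together. Control replicates 1 to 4 had 52938, 58823, 52216 and 65005 CPM. High-fat replicates 1 to 4 had 66317, 58790, 61641 and 55442 CPM. These 2 groups overlapped almost wholly.

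The group means of miR-21a-5p, from high to low, were 80436 ± 5459 CPM (SD, n = 4) on the control diet at day 1, 73189 ± 10972 on the high-fat diet at day 1 and 68857 ± 18687 on the control diet at week 1. They were followed by 60547 ± 4606 on the high-fat diet at week 3, 57630 ± 17624 on the high-fat diet at week 1 and 57246 ± 5959 on the control diet at week 3. Every group overlapped with the next in this order. Over the 24 libraries the level ranged 2.43-fold. The SD within groups was 0.26 on the log2 scale, against a median of 0.44 over the 558 tested miRNAs, 93 of which had a smaller one. Among its 29 neighbours in abundance the median was 0.28 and 13 had a smaller SD, so its spread was ordinary for its level.

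For miR-21a-3p, control replicates 1 to 4 at day 1 had 22.3, 13.5, 22.6 and 16.3 CPM. High-fat replicates 1 to 4 had 21.4, 13.1, 17.2 and 15.8 CPM. The 2 groups covered nearly the same range.
At week 1, control replicates 1 to 4 had 23.1, 14.8, 21.4 and 20.04 CPM. High-fat replicates 1 to 4 had 10.6, 11.9, 10.3 and 17.8 CPM. Of the high-fat libraries, 3 lay below every control library and replicate 4 lay among the controls, so the groups overlapped. Of the 558 tested miRNAs, 1.97% had all high-fat values below all control values at this time.
At week 3, control replicates 1 to 4 had 11.5, 16.4, 23.2 and 19.4 CPM. High-fat replicates 1 to 4 had 23.1, 17.3, 13.4 and 14.9 CPM. These ranges overlapped throughout.
The group means were 19.8 ± 3.59 CPM (SD, n = 4) on the control diet at week 1, 18.7 ± 4.52 on the control diet at day 1, 17.6 ± 4.96 on the control diet at week 3, 17.2 ± 4.28 on the high-fat diet at week 3, 16.9 ± 3.45 on the high-fat diet at day 1 and 12.7 ± 3.49 on the high-fat diet at week 1. Neighbours in this order overlapped in each case.

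**Figure D1:**
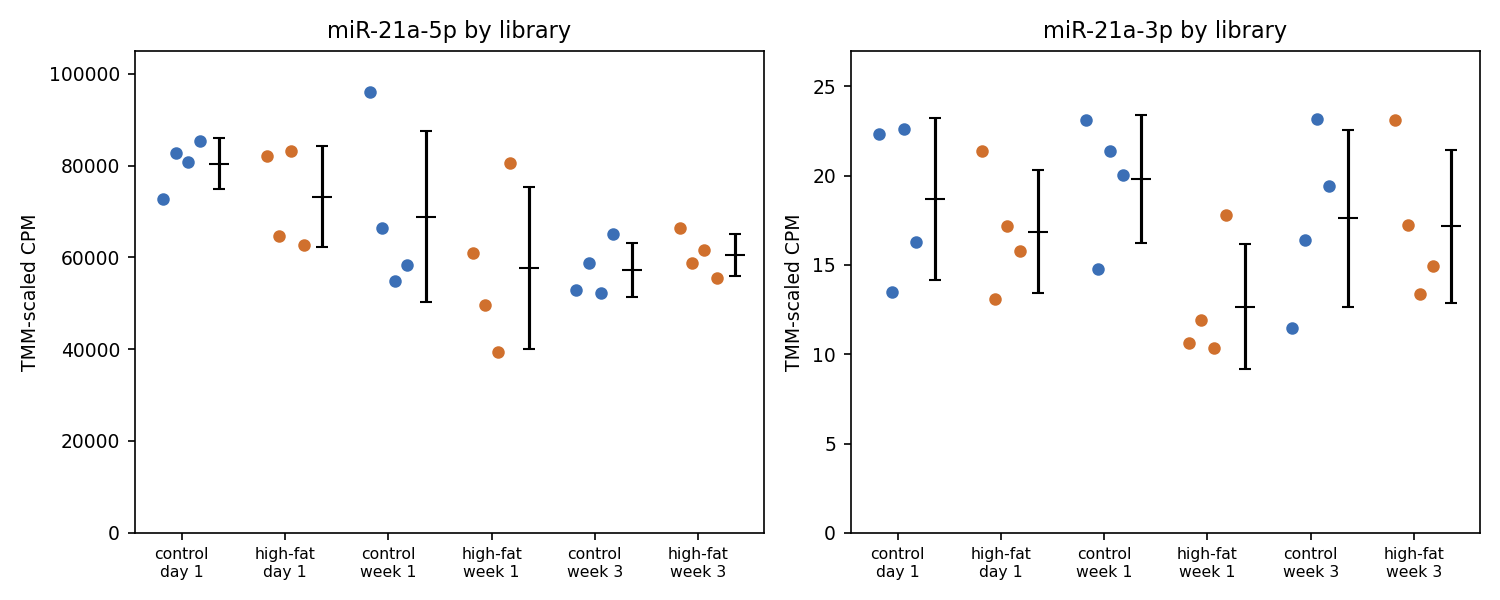
Level of miR-21a-5p (left) and miR-21a-3p (right) in TMM-scaled CPM for each library, by diet and time (4 points per group in the order of the replicate numbers; control blue, high-fat orange), with the group mean and SD in black. The 5p values of week 3 sit between 52216 and 66317 CPM, and 3 of the 4 high-fat 3p values of week 1 lie below 12 CPM.

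The question of the study's design, whether high-fat feeding changed these miRNAs, was tested for each time with edgeR across all 558 miRNAs. Neither arm passed an adjusted p of 0.05 at any time. At day 1, miR-21a-5p had a log2 fold change (high-fat over control) of −0.14 ± 0.18 (SE), a fold of 0.910 with a 95% interval of 0.699 to 1.19. MiR-21a-3p had −0.14 ± 0.25, a fold of 0.905 (0.632 to 1.30). The adjusted p was 0.982 for both arms, and 0% of the 558 miRNAs passed (17 had an unadjusted p under 0.05). DESeq2 and limma-voom also called 0. Without high-fat replicate 4 the 5p estimate was −0.03.

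At week 1 the estimates of both arms were lower on the high-fat diet. For miR-21a-3p the log2 fold change was −0.66 ± 0.25 (SE), a fold of 0.634 with a 95% interval of 0.440 to 0.913, an unadjusted edgeR p of 0.0164 and an adjusted p of 0.225. MiR-21a-5p had −0.26 ± 0.18, a fold of 0.837 (0.643 to 1.09) with an adjusted p of 0.495. EdgeR called 0% of 558 miRNAs at week 1 and DESeq2 0, while 79 had an unadjusted edgeR p under 0.05 and limma-voom called 19 that did not include either arm. The 3p arm was 40th of 558 by p. Its raw counts were 38 to 56 in the high-fat libraries and 107 to 323 in the deeper control libraries. The estimate for the 5p arm rested on single libraries, at −0.03 without control replicate 1, −0.04 without high-fat replicate 3 and −0.41 without high-fat replicate 4. Marker miRNAs of several cell types moved in the same libraries without any passing. Of the 10 leukocyte markers 8 had lower and 2 higher estimates on the high-fat diet (median log2 fold change −1.31, against −0.02 over all 558), the 2 being miR-223-3p (0.14 ± 0.21) and miR-223-5p (0.01 ± 0.20). The 10 names include both arms of several precursors, miR-223 among them, so they are not independent of one another. Estimates were higher for 7 of 7 epithelial markers (median 0.38), 5 of 5 fibroblast markers (median 0.27), 5 of 5 erythrocyte markers (median 0.32) and 6 of 7 tested muscle markers (median 0.47). Adipocyte markers had 3 higher and 4 lower estimates (median −0.01). Endothelial miR-126a-3p had 0.04 ± 0.15 and the liver marker miR-122-5p 1.36 ± 0.50 (adjusted edgeR p 0.929 and 0.225). The part of these in the miR-21a values was not tested beyond the fits given here. The mean log2 CPM of the 10 leukocyte markers, all 10 of them tested and detected in every library, was 8.42 ± 0.80 (SD, n = 4) on the high-fat diet and 9.55 ± 0.86 on the control diet. Their summed counts were 0.644% to 2.48% of the high-fat libraries and 1.17% to 5.57% of the control libraries. With muscle and leukocyte marker means as covariates the 3p arm had −0.43 ± 0.26 (adjusted p 0.991 in edgeR). After removal of the 3 libraries with the least leukocyte signal (replicates 1 and 3 of high-fat week 1, replicate 1 of control week 3), it had −0.32 ± 0.29, and the 5p arm had 0.03 ± 0.20. Only replicates 2 and 4 of high-fat week 1 then remained (11.9 and 17.8 CPM of the 3p arm). The removed replicates held the lowest 3p values of that group (10.6 and 10.3 CPM). A 3p estimate nearer to 0 thus followed from the choice of libraries, and nothing is concluded from it. In bulk tissue, fewer cells of a type and less RNA per cell cannot be told apart.

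At week 3, miR-21a-5p had a log2 fold change of 0.08 ± 0.18 (SE), a fold of 1.06 (0.812 to 1.38), and miR-21a-3p −0.05 ± 0.25, a fold of 0.969 (0.678 to 1.39), each with an adjusted edgeR p of 0.999. EdgeR called 0% of 558 miRNAs with 10 at an unadjusted p under 0.05, and DESeq2 and limma-voom called 0. The sign for the 3p arm was not fixed, with 0.01 under RLE size factors. Averaged over the 3 times (12 against 12 libraries), miR-21a-5p had −0.10 ± 0.11 and miR-21a-3p −0.28 ± 0.14, with folds of 0.930 (0.799 to 1.08) and 0.822 (0.668 to 1.01) and an adjusted edgeR p of 0.993 each. In this average too edgeR called 0% of 558, with 18 at an unadjusted p under 0.05, and DESeq2 and limma-voom 0. The average for the 5p arm was −0.00354 without control week 1 replicate 1, −0.00775 without high-fat week 1 replicate 3, and 0.02 without the 3 libraries with the least leukocyte signal. The diet effect did not differ detectably between the times. The joint edgeR test gave an unadjusted p of 0.435 for the 5p arm and 0.205 for the 3p arm (adjusted p 0.827 and 0.621). The change in the diet effect from day 1 to week 3 was 0.22 ± 0.26 and 0.10 ± 0.35 (adjusted p 0.991 for both), a difference whose sign for the 3p arm turned to −0.05 under library totals. EdgeR, DESeq2 and limma-voom called 0% of 558 in either test, with 41 and 11 at an unadjusted edgeR p under 0.05.

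Over time, miR-21a-5p was lower at week 3 than at day 1, without passing the threshold in edgeR. On the control diet all 4 values of week 3 (52216 to 65005 CPM) lay below all 4 of day 1 (72724 to 85338 CPM). Of the 558 tested miRNAs, 3.76% had control groups that were separated in this direction. The log2 fold change in control animals was −0.49 ± 0.18 (SE), a fold of 0.712 with a 95% interval of 0.546 to 0.927 and an adjusted edgeR p of 0.225, where 0.358% of miRNAs were called (83 had an unadjusted p under 0.05). On the high-fat diet the ranges overlapped (55442 to 66317 CPM at week 3 and 62758 to 83230 CPM at day 1), and the log2 fold change was −0.27 ± 0.18, a fold of 0.827 (0.635 to 1.08) with an adjusted p of 0.425. EdgeR called 0% of 558 there, with 88 at an unadjusted p under 0.05, DESeq2 11 and limma-voom 13. With the marker means as covariates the high-fat value was −0.01.

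The mean of both diets (8 libraries of each time) gave miR-21a-5p a log2 fold change of −0.38 ± 0.13 (SE), a fold of 0.767 with a 95% interval of 0.636 to 0.925. The unadjusted edgeR p was 0.00756 and the adjusted p 0.0680, just outside the threshold, where 7.17% of the 558 miRNAs were called. The adjusted p was 0.0319 with DESeq2 and 0.0275 with limma-voom, and over all alternative settings it ran from 0.0242 to 0.380. The share of all tested miRNAs called in those settings is not given here. MiR-21a-3p had −0.03 ± 0.18, a fold of 0.977 (0.758 to 1.26) with an adjusted edgeR p of 0.922. Marker estimates of several cell types were higher at week 3 in the same libraries, while those of leukocytes were mostly lower. Estimates were positive for 7 of 7 tested muscle markers (median log2 fold change 2.32, 0 called), 5 of 5 erythrocyte markers (median 0.78, with miR-144-3p called at an adjusted p of 0.0478) and 5 of 5 fibroblast markers (median 0.25, 0 called), against a median of 0.05 over all 558. Endothelial miR-126a-3p (0.36 ± 0.11, adjusted p 0.0473) and miR-335-3p of the adipocyte list (1.58 ± 0.39, adjusted p 0.0196) also passed in edgeR. In the adipocyte list as a whole 5 of 7 estimates were higher and 2 lower (median 0.23, 1 called). Leukocyte markers had 2 higher and 8 lower estimates (median −0.21, 0 called), and epithelial markers 4 higher and 3 lower (median 0.06, 0 called). The liver marker miR-122-5p had 0.40 and was not called. Of these lists only muscle and leukocyte means entered a fit, and the part of the others was not tested. The mean log2 CPM of the 7 tested muscle markers was 4.60 ± 1.74 (SD, n = 4) at day 1 and 6.96 ± 1.62 at week 3 on the control diet, and 3.71 ± 3.34 and 7.47 ± 1.29 on the high-fat diet. The summed counts of the 8 listed muscle markers were 0.0150% to 0.229% of the control libraries at day 1 and 0.198% to 1.25% at week 3. In high-fat libraries they were 0.00225% to 0.317% at day 1 and 0.1299% to 1.69% at week 3. The heart and muscle miRNA miR-208b-3p was at 0 in 12 libraries and miR-1a-1-5p in 1. With muscle and leukocyte means as covariates the log2 fold change of miR-21a-5p was −0.17 ± 0.13 (adjusted p 0.380 in edgeR).

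Neither arm passed in the steps between these times. From day 1 to week 1, miR-21a-5p had log2 fold changes of −0.22 ± 0.18 (SE) under control feeding and −0.34 ± 0.18 under high-fat feeding (adjusted edgeR p 0.577 and 0.285), where 0.179% and 0% of miRNAs were called. MiR-21a-3p had 0.08 ± 0.25 and −0.43 ± 0.26 (adjusted p 0.931 and 0.326). From week 1 to week 3, the 5p arm had −0.27 ± 0.18 under control feeding and 0.07 ± 0.18 under high-fat feeding (adjusted p 0.993 and 0.881). The 3p arm had −0.16 ± 0.25 and 0.45 ± 0.26 (adjusted p 0.993 and 0.421), and from day 1 to week 3 it had −0.08 ± 0.25 and 0.02 ± 0.25 (adjusted p 0.898 and 0.981). EdgeR called 0% of 558 for the high-fat step from day 1 to week 1 (115 at an unadjusted p under 0.05, with 32 called by DESeq2 and 39 by limma-voom). It called 0% for both steps to week 3 as well (13 under control feeding and 80 under high-fat feeding at an unadjusted p under 0.05, and 0 called by DESeq2 or limma-voom). Under library totals the median of all miRNAs moved by −0.12 on the log2 scale in the high-fat step from week 1 to week 3, and miR-21a-5p then had −0.03. These comparisons share libraries with one another and with those above, so they are not independent. Single libraries weighed on these steps. Without control week 1 replicate 1 the 5p step to week 1 on the control diet was −0.48 and the step to week 3 was −0.07. Without high-fat week 1 replicate 4 the high-fat step to week 1 was −0.59 for the 5p arm and −0.67 for the 3p arm, and without replicate 3 it was −0.22 for the 5p arm.

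**Figure D2:**
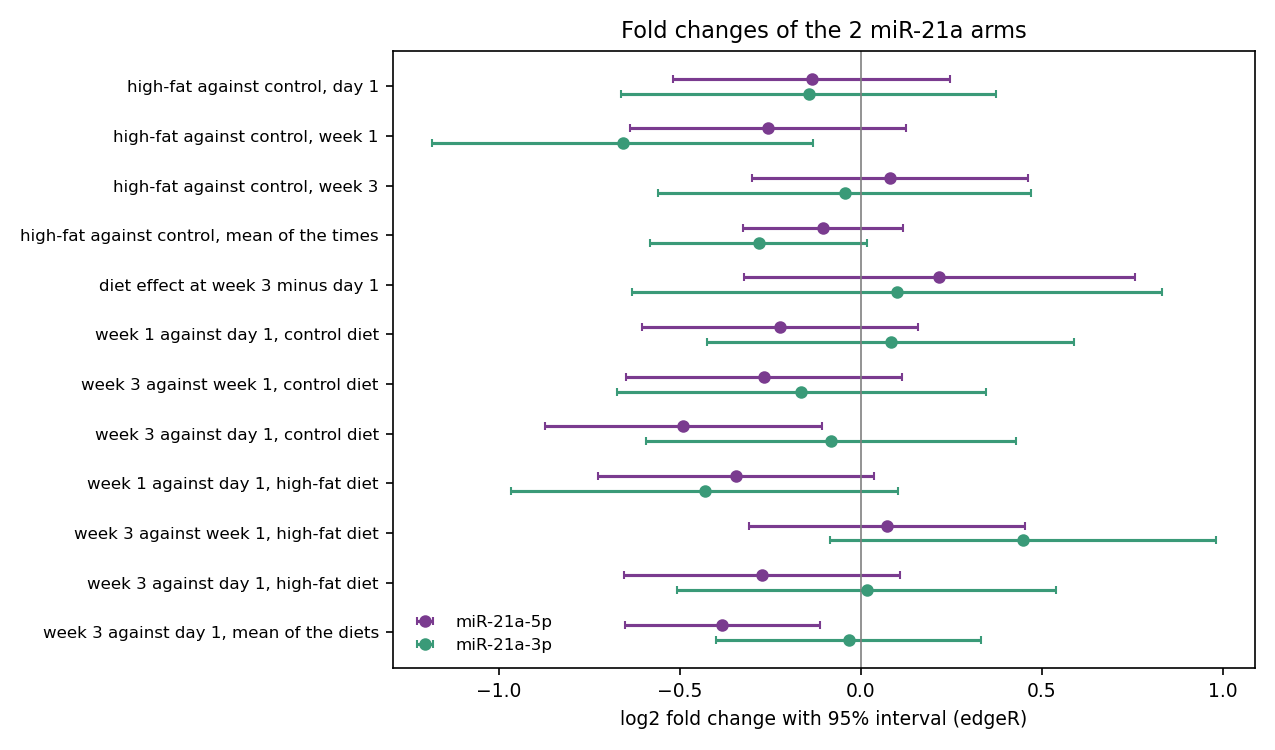
Log2 fold changes of miR-21a-5p (purple) and miR-21a-3p (green) with 95% intervals from edgeR, 1 line per comparison. The vertical line marks no change. The interval excludes 0 for the 5p arm in week 3 against day 1 on the control diet and over both diets, and for the 3p arm in high-fat against control at week 1, none of which passed the adjusted threshold.

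The share of the 3p arm among miR-21a counts does not depend on the size of a library or its scaling, so it compares the arms within each library. Summed over all libraries, 0.0270% of miR-21a counts came from the 3p arm, with 2254 to 6135 counts of the 5p arm for each count of the 3p arm. On the control diet at day 1 the shares in replicates 1 to 4 were 0.0307%, 0.0163%, 0.0280% and 0.0191%. On the high-fat diet at day 1 they were 0.0260%, 0.0203%, 0.0206% and 0.0251%. At this time the group means were 0.0235% and 0.0230%, and the controls held the lowest share of the series in replicate 2 (exact 95% Clopper-Pearson interval 0.0132% to 0.0199%).
At week 1 the control replicates 1 to 4 had shares of 0.0241%, 0.0223%, 0.0389% and 0.0343%. The high-fat replicates 1 to 4 had 0.0174%, 0.0241%, 0.0262% and 0.0221%. Control replicates 3 and 4 were above every high-fat library, and the other 2 controls were within the high-fat range.
At week 3 the control replicates 1 to 4 had shares of 0.0216%, 0.0278%, 0.0443% and 0.0299%. The high-fat replicates 1 to 4 had 0.0349%, 0.0293%, 0.0217% and 0.0269%. Control replicate 3 at week 3 had the highest share of the series (0.0382% to 0.0512%).

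**Figure D3:**
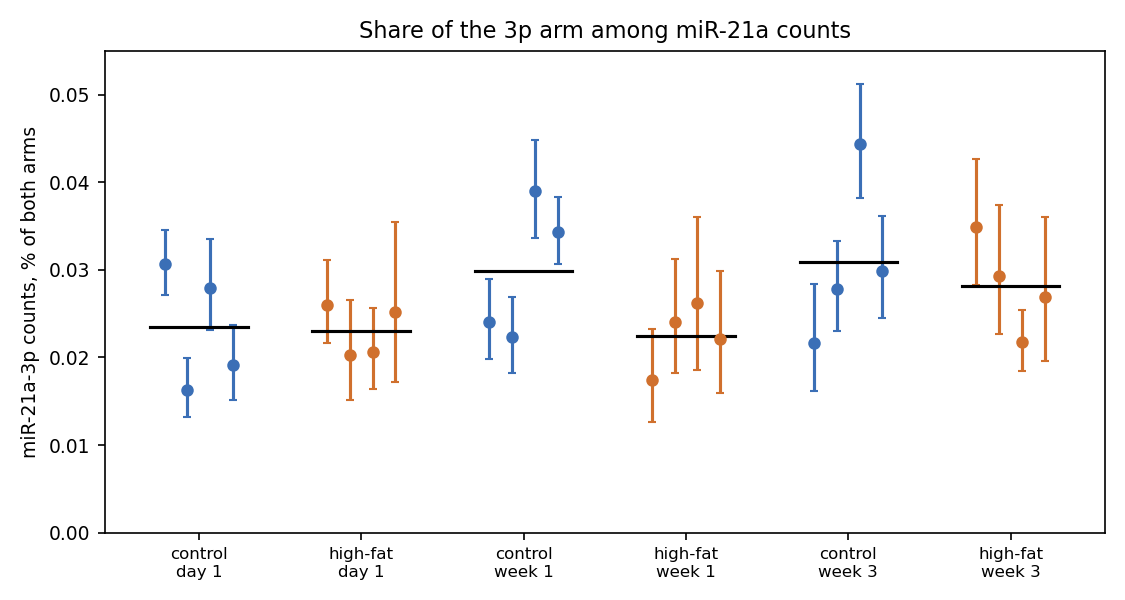
Percent of miR-21a counts that came from the 3p arm in each library, by diet and time, with exact 95% Clopper-Pearson intervals that cover counting error only and the group mean as a black line. Shares ran from 0.0163% to 0.0443%, and all 6 groups overlapped with one another.

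The log2 ratio of 3p to 5p counts was tested by exact permutation (two-sided, 4 against 4), where p cannot go below 0.0286. The high-fat minus control difference was 0.01 ± 0.24 (SE) at day 1 (exact permutation p 0.971, adjusted 0.971). It was −0.39 ± 0.23 at week 1 (exact permutation p 0.200, adjusted 0.600) and −0.10 ± 0.26 at week 3 (0.686, adjusted 0.971). Averaged over the times, with diet exchanged within each time, it was −0.16 (exact permutation p 0.253). Between times, week 3 minus day 1 was 0.39 under control feeding and 0.28 under high-fat feeding, with exact permutation p of 0.257 and 0.143. These were 0.20 without control week 3 replicate 3 and 0.17 without high-fat week 3 replicate 1. Week 1 minus day 1 was 0.36 and −0.04 (exact permutation p 0.257 and 0.886), and week 3 minus week 1 was 0.04 and 0.33 (0.943 and 0.143). All 6 had an adjusted p of 0.386 or more. A test over both diets with time exchanged within each diet, added after the data were seen, gave 0.34 for week 3 minus day 1 with an exact permutation p of 0.0641 over 4900 regroupings (0.192 adjusted over 3 such tests). The SD of the ratio within groups was 0.34 on the log2 scale, while counting of the 3p arm alone would give 0.17, or 23.5% of the variance.

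Set beside other precursors, miR-21a had one of the most uneven pairs of arms. In 167 precursors both arms were tested, and the rarer arm made up a median of 12.1% of both. The rarer arm had to pass the count filter, so very low shares can appear here only where the other arm is abundant. Only miR-99a (0.0170%), miR-146a (0.0209%) and let-7g (0.0230%) had a lower share than miR-21a. Among 58 precursors with both arms named in the table and a mean of at least 1000 CPM for the more abundant arm, the median was 0.505% and miR-21a was the sixth lowest. The others below it were miR-126a, whose 5p arm was listed at 0, and miR-206 (0.00508%). How reads with several matches, or with trimmed or added bases, were assigned is not given in the sources used here, and the part of the counting in these shares was not tested. The ratio was about as steady between libraries as in other precursors. Of 80 precursors with at least 30 counts of the rarer arm in every library, 38 had a smaller SD of the log2 ratio within groups than miR-21a (0.34, with a median of 0.35).

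**Figure D4:**
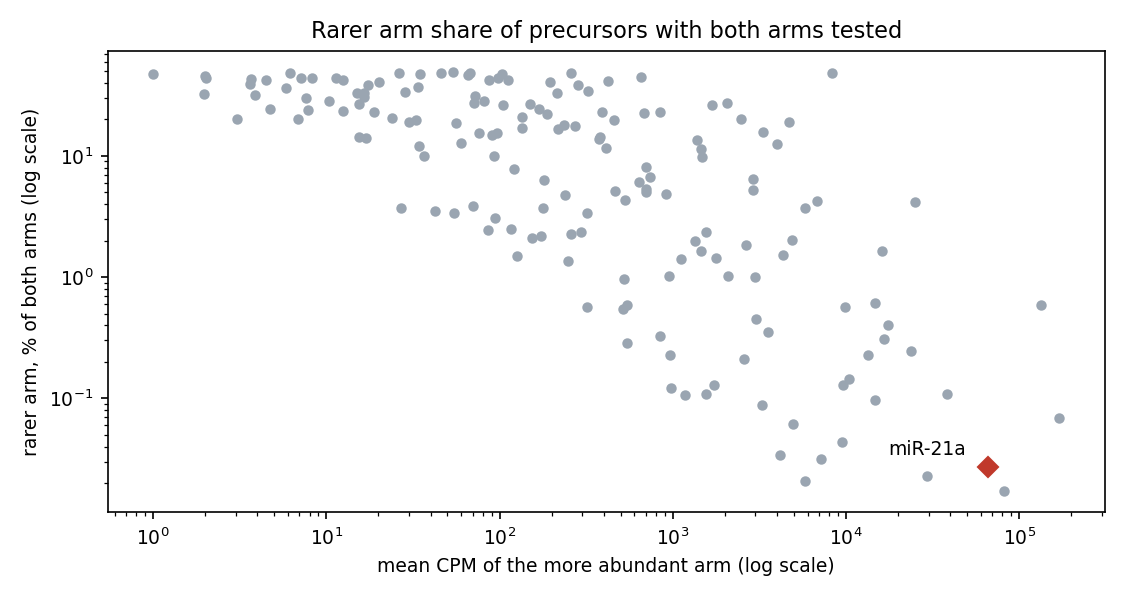
Share of the rarer arm among the counts of both arms (log scale) against the mean CPM of the more abundant arm (log scale) for 167 precursors with both arms tested; miR-21a is the red diamond. MiR-21a lies at 0.0270% and 66317 CPM, near the lower right edge of the cloud, whose lower left is kept empty by the count filter on the rarer arm.

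The levels of the 2 arms were only loosely related. Over the 24 libraries Pearson's r between their log2 CPM was 0.47 (permutation p 0.0207, adjusted over 5 relations 0.0345) and Spearman's rho 0.36 (permutation p 0.0846, adjusted 0.138). Without the 2 libraries farthest from the median of miR-21a-5p (replicate 1 of control week 1, replicate 3 of high-fat week 1) r was 0.25, so the relation rested on those libraries. With group means subtracted r was 0.40 (permutation p 0.0537, adjusted 0.0895), where the permutation did not allow for the subtracted means and gives too small a p. The permutation of the levels exchanged libraries across the 6 groups, so shifts between groups enter its p-values, and no call is made from them.

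MiR-21a-5p was lower where skeletal muscle miRNAs were higher. Pearson's r with the muscle marker mean was −0.66 (permutation p 0.000500, adjusted 0.00250) and Spearman's rho −0.71 (0.000170, adjusted 0.000850) over 24 libraries. Without the 2 libraries of most distant muscle level (high-fat day 1 replicates 2 and 3) r was −0.72. With group means subtracted, r was −0.61 (permutation p 0.00132, adjusted 0.00660), so a negative relation was also seen among libraries of the same diet and time. It was weaker, at −0.49, without high-fat day 1 replicate 3 and high-fat week 1 replicate 4. With library totals it was −0.50, and −0.40 without the same libraries. For miR-21a-3p the corresponding r was −0.17 (permutation p 0.426) and rho −0.23 (0.284). The 3p arm was higher where leukocyte miRNAs were higher. Its r with the leukocyte marker mean was 0.62 (permutation p 0.00107, adjusted 0.00267) and rho 0.52 (0.0105, adjusted 0.0261). With replicate 1 of control week 3 and replicate 3 of high-fat week 1 left out, r was 0.45, and with group means subtracted it was 0.52 (permutation p 0.00929, adjusted 0.0232). For both marker lists the permutations of deviations did not allow for the subtracted group means. Their p-values are therefore too small, and no call is made from them. Permutations of the levels exchanged libraries across the 6 groups, so shifts between diets and times enter those p-values as well. No call is made from those either. For miR-21a-5p and leukocyte markers r was 0.44 (permutation p 0.0335, adjusted 0.0419) and rho 0.34 (0.111, adjusted 0.138), with 0.16 for r without the same 2 libraries, on which it rested. Whether the arms differ from each other in these relations was not tested. CPM values of a library share one total, so a rise of one abundant miRNA lowers the share of others; muscle markers reached 9.17% of the counts in 1 high-fat library of week 1. The part of this in the relations was not tested.

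**Figure D5:**
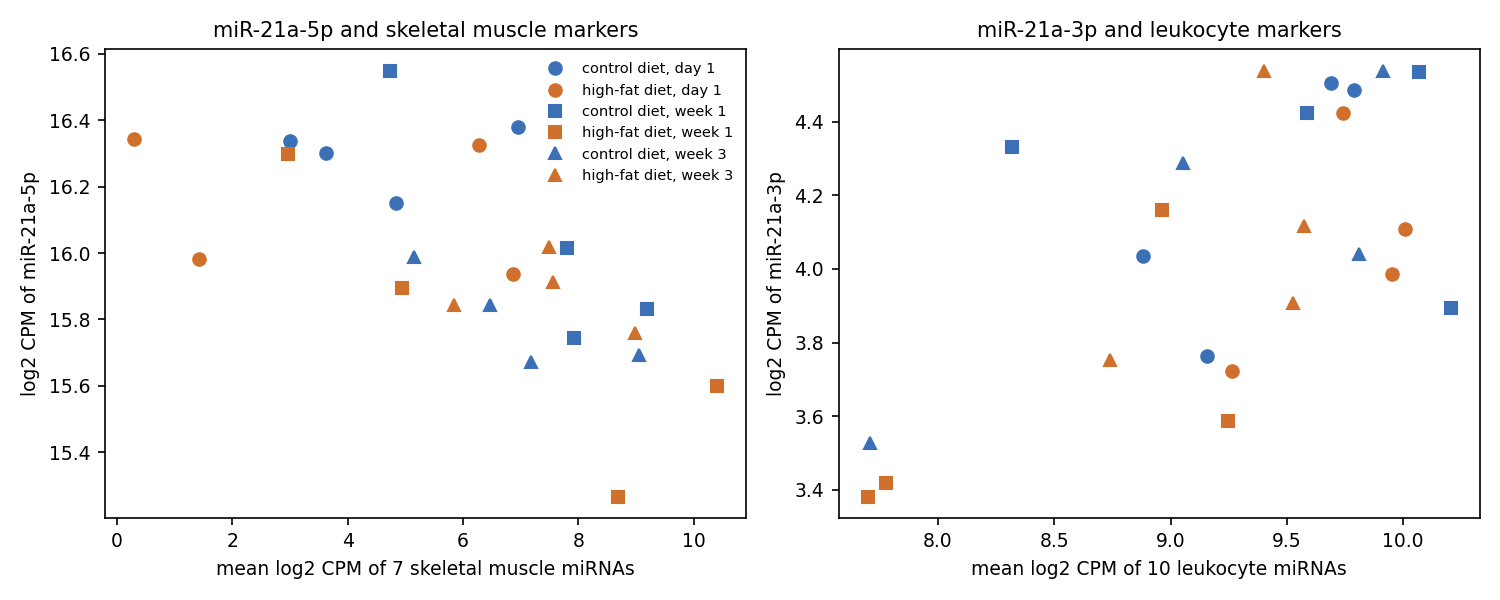
Log2 CPM of miR-21a-5p against the mean log2 CPM of 7 skeletal muscle miRNAs (left) and of miR-21a-3p against that of 10 leukocyte miRNAs (right), 1 point per library, with diet by colour and time by shape. Pearson's r over the 24 libraries is −0.66 on the left and 0.62 on the right.

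The miRNAs whose levels followed each arm most closely were found among 358 others with a mean of at least 10 CPM by Pearson's r over 24 libraries after subtraction of group means. For miR-21a-5p they were miR-192-5p (r 0.75), miR-7043-3p (0.72), miR-141-5p (0.67), miR-450b-5p (0.64) and miR-15a-3p (0.64), where the median over all candidates was 0.07. For miR-21a-3p they were miR-15a-3p (0.81), miR-1843b-5p (0.68), miR-140-3p (0.66), miR-181a-1-3p (0.65) and miR-106b-5p (0.63), with a median of −0.01. MiR-15a-3p was thus among the 5 closest of both arms, at a mean of 12.3 CPM. Each arm came only 41st (the 3p arm for miR-21a-5p) and 67th (the 5p arm for miR-21a-3p) in the order of the other. These are the highest of many values and only describe these libraries.

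Of 12 other miRNAs known from inflammation and obesity, all tested, 0 passed in any of the 13 comparisons with edgeR. Over all 558 miRNAs 0% passed in 10 of these comparisons and 0.179%, 0.358% and 7.17% in the others, so a count of 0 among 12 is near the background. The list shares miR-146a-5p, miR-155-5p and miR-223-3p with the leukocyte markers, so the lists are not separate. At week 1 on the high-fat diet 6 estimates were higher and 6 lower (median log2 fold change −0.01, against −0.02 over all 558). Among them were miR-155-5p of activated leukocytes (−1.49 ± 0.62 SE, adjusted p 0.275) and miR-146a-5p, a feedback inhibitor of NF-kappaB signalling (−0.85 ± 0.42, adjusted p 0.353). The most abundant, miR-27a-3p, known to restrain adipocyte differentiation, had 0.06 ± 0.24 at 9821 CPM. MiR-125b-5p, at 2931 CPM, had 0.21 ± 0.24. From day 1 to week 3 over both diets 4 of the 12 were higher and 8 lower (median −0.09, against 0.05 over all). The smallest adjusted p among them was that of miR-222-3p (0.54 ± 0.17, adjusted p 0.0508), which is known from vascular cells.

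Of 12 miRNAs known from fibrosis, all tested, 0 passed in any comparison, which is near the same background of 0% to 7.17%. At week 1 on the high-fat diet 7 estimates were higher and 5 lower (median 0.18). From day 1 to week 3 over both diets 9 were higher and 3 lower (median 0.16, against 0.05 over all 558). The most abundant was miR-199a-3p of fibroblasts at 13327 CPM, with 0.42 ± 0.15 over that time (adjusted edgeR p 0.0789). It was followed by miR-29a-3p, which represses collagen genes, at 9621 CPM with −0.10 ± 0.14 (adjusted p 0.684), and by miR-200b-3p of epithelium at 3004 CPM with 0.06 ± 0.18 (adjusted p 0.856). The lower values were those of the miR-29 family, with miR-29b-3p at −0.61 ± 0.23 and miR-29c-3p at −0.46 ± 0.17 (adjusted p 0.0830 each).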

How the data were processed

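Per the labels' protocols, total RNA isolated with TRIzol went into NEBNext small RNA libraries. The authors deposited raw counts for each mature miRNA. The submitters' processing notes list FastQC, Trim Galore, Bowtie2, featureCounts and mm10. The sources used here do not give versions, settings, annotation or how multiply matching reads were handled. Groups and replicate numbers came from sample titles. EdgeR 4.0.16 in R 4.3.3 kept 558 of 1907 names (filterByExpr, minimum count 10, minimum total 15; 99.98% of counts), with TMM, a cell-means model of 6 groups, robust quasi-likelihood tests and Benjamini-Hochberg adjusted p under 0.05, for 13 comparisons. Intervals are 95% from the fit, and the SE is the estimate divided by the root of F. Alternatives were DESeq2 1.42.0, limma-voom (limma 3.58.1) with quality weights, RLE, library totals, TMM without the 5 most abundant miRNAs or without muscle markers, other filters, a replicate block, marker covariates, no muscle-high libraries (replicate 2 of high-fat week 1, replicate 4 of control week 1, replicate 1 of control week 3) and leaving out each library. Tests of the arm ratio over both diets, correlations of deviations from group means and the removal of leukocyte-low libraries were added after the data were seen. The labels do not say that replicate numbers pair samples, and the main fit did not pair them. Totals of 1.99 to 16.3 M counts set the precision, and they were lower in high-fat than in control libraries at day 1 and week 1. Log2 CPM used a prior count of 0.5. Correlations used 100000 permutations over all 24 libraries, also for deviations from group means, without allowance for the means subtracted. The edgeR code was tested on simulated data. Between libraries of a group, chi-square divided by its degrees of freedom was at least 172, so none was merged. The members, lists and tests were chosen with earlier results of these data known. Named miRNAs are both arms, miRNAs sharing a seed, the 5 closest to each arm, neighbours in abundance and, from each list, those past the threshold or the 3 most abundant; miR-34b-3p, miR-380-3p and let-7i-5p are such neighbours, while miR-155-5p, miR-222-3p, miR-29b-3p, miR-29c-3p, miR-126a-5p, miR-208b-3p, miR-1a-1-5p, miR-223-3p, miR-223-5p, miR-144-3p, miR-335-3p and the precursors with lower arm shares were named after their values were seen. Of the 1907 names, 1623 matched the RefSeq sequence table, both arms included. Of the other marker lists, means of log2 CPM were 9.69 for adipocytes, 16.4 for endothelium (1 of 2 tested), 9.35 for fibroblasts, 10.6 for epithelium and 7.39 for erythrocytes and 8.37 for liver (miR-122-5p).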

Additional observations from a re-analysis of the deposited data

How the results depend on the processing

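Apart from leaving out single libraries, 333 of 366 alternative values kept their direction and their side of the threshold. The cause of the other changes was not tested. MiR-21a-5p in week 3 against day 1 over both diets passed the threshold with library totals (−0.42), TMM without the 5 most abundant miRNAs (−0.45), a mean CPM of at least 10 (−0.41), DESeq2 (−0.41) and limma-voom (−0.41). It also did without control week 3 replicate 4. The share of all tested miRNAs called in these settings is not given here. The passes are therefore not read as a result about miR-21a-5p. Leaving out single libraries gave −0.47 to −0.37 for miR-21a-5p in this comparison (adjusted edgeR p 0.0414 to 0.103). Several diet estimates turned. Without the 3 leukocyte-low libraries miR-21a-5p had 0.028 at week 1, from −0.26, and 0.020 over the times. Only replicates 2 and 4 of high-fat week 1 remained in those fits. MiR-21a-3p at week 3 had 0.00659 with RLE, 0.0127 without the 5 most abundant miRNAs and 0.061 at a mean CPM of at least 10. Its diet effect at week 3 less that at day 1 was −0.045 with totals and −0.039 without the leukocyte-low libraries. Among the time estimates of miR-21a-3p, week 1 against day 1 on the control diet was −0.018 without the 5 most abundant miRNAs and −0.00332 without the muscle-high libraries. Without the muscle-high and the leukocyte-low libraries in turn, week 3 against week 1 on that diet was 0.00780 and 0.00982, week 3 against day 1 was 0.00448 and 0.043, and the mean of the diets was 0.00484 and 0.023. That mean was 0.079 with marker covariates. On the high-fat diet, week 3 against day 1 was −0.00414 with RLE, −0.087 with totals, −0.019 without the 5 most abundant miRNAs, −0.013 with DESeq2 and −0.068 with limma-voom. MiR-21a-5p from week 1 to week 3 on that diet was −0.029 with totals and −0.11 without the leukocyte-low libraries. The difference in medians of the arm ratio was −0.022 for diet at day 1 and 0.018 for week 1 against day 1 on the high-fat diet. The correlation between the arms was 0.40 with totals and 0.40 within groups, and that of leukocyte markers with miR-21a-5p was 0.28 within groups. Leaving out single libraries gave miR-21a-3p −0.26 to 0.00269 for diet at day 1, −0.19 to 0.13 for diet at week 3 and −0.082 to 0.27 for the change of the diet effect. It gave −0.084 to 0.21 for week 1 and −0.27 to 0.044 for week 3 against day 1 on the control diet, −0.21 to 0.12 for week 3 against day 1 on the high-fat diet and −0.17 to 0.035 over both. MiR-21a-5p from week 1 to week 3 on the high-fat diet ran from −0.10 to 0.28. The arm ratio ran from −0.15 to 0.15 for diet at day 1, −0.26 to 0.085 for diet at week 3, −0.15 to 0.19 for week 3 against week 1 on the control diet and −0.12 to 0.074 for week 1 against day 1 on the high-fat diet. The samples share only a replicate number. Same-numbered libraries of the 2 diets had correlations of their deviations from −0.50 to 0.40, and at most 2 of 4 libraries correlated best with their own number. At day 1 all of these correlations were positive (0.07 to 0.38). So few pairs cannot show whether the numbers mark shared animals or batches. With the number as a replicate block no call of either arm changed, with −0.64 for miR-21a-3p at week 1 and −0.39 for miR-21a-5p in week 3 against day 1 over both diets (adjusted edgeR p 0.0694). Calls over all miRNAs went from 40 to 33 there, from 2 to 0 for week 3 and from 1 to 2 for week 1 against day 1 on the control diet. Counting error limits miR-21a-3p, at 32 to 323 counts per library, more than miR-21a-5p.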
